A study of Mus musculus with 4 samples.

Results

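Crct1, Vgf, 1700001F09Rik and BC061237 were chosen by their counts, since each had at most 1 count in either section of normal mouse kidney and over 200 counts in either section of ischemic kidney. They are 4 of the 32285 genes in the count tables. Those counts were the basis of the choice, so their difference between ischemic and normal tissue is described here and not tested. The sections came from left kidneys of male C57BL/6J mice of 7 to 8 weeks, with no transgene. The 2 normal sections were untreated controls by their labels, with no sham operation stated, and the 2 ischemic sections were taken 24 h after 30 min of clamping both renal pedicles. RNA was captured on Visium slides, which print an array of barcoded spots under a 10 µm section, and each spot takes RNA from several cells. The file headers place all 4 sections on the same slide. Which mouse each section came from is not given in the labels. The p-values of ischemic against normal thus measure the spread between these sections, which may be technical. Those of tests within the 2 ischemic sections measure how differences between zones or classes of spots vary between these sections. That spread may be technical too, and each fit shares 1 estimate of it over all zones or classes.

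The kidney is layered from the cortex through the outer and inner stripes of the outer medulla to the inner medulla, with the pelvis collecting the urine. The straight part of the proximal tubule lies in the outer stripe and is known to be sensitive to loss of blood flow. Vgf encodes a secreted granin-like precursor that neurons and endocrine cells cleave into peptides. Crct1 is a small gene of the epidermal differentiation complex, a cluster that holds many proteins of the cornified skin envelope. 1700001F09Rik and BC061237 are little-described genes of a tandem cluster on chromosome 14, and no role is given for them here.

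In the GRCm38 (mm10) assembly with GENCODE M21 genes, Crct1 lies at chr3:93014205-93015687 on the minus strand and Vgf at chr5:137026392-137033351 on the plus strand. 1700001F09Rik lies at chr14:43342383-43347811 on the minus strand and BC061237 at chr14:44492463-44506345 on the plus strand. All 4 are annotated as protein coding. The chromosome 14 genes are close copies, which bears on how their counts can be read, so their coding exon 4 is shown for both, at chr14:43344504-43344688 (minus strand) and chr14:44504107-44504291 (plus strand). The 185 bases differ at 6 positions, marked by capitals, and are otherwise the same.
1700001F09Rik: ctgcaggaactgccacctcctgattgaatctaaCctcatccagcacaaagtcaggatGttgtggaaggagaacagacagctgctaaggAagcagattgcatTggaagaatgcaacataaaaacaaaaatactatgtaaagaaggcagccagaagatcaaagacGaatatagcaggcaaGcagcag
BC061237: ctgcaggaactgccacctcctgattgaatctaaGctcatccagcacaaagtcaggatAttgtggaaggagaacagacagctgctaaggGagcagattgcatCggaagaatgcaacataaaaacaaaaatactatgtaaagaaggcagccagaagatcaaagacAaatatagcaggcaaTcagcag

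The sections held between 2401 and 2682 spots and between 25957128 and 44528078 counts of unique molecules (UMIs), and the deepest was normal section 1. The ischemia label was checked with 2 well-known tubular injury genes. Havcr1, the kidney injury molecule, had 43 and 59 counts in normal tissue and 43731 and 36668 after ischemia. Lcn2, which encodes a secreted injury marker of the distal nephron, had 219 and 220 against 94901 and 94111. Of the kidney markers, 3 of 3 for podocytes and 4 of 4 for intercalated cells were above 0 in every section.

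Crct1 had 0 counts in both normal sections and 1564 and 1296 counts in the ischemic sections, or 50.4 and 49.9 counts scaled to the section total (CPM). It was found in 505 of 2401 spots of ischemic section 1 (21.0%, 95% exact binomial interval 19.4 to 22.7) and in 411 of 2613 spots of ischemic section 2 (15.7%, 14.4 to 17.2). The ischemic level was at least 1207-fold higher, taking 3 counts over both normal sections as the floor. Intervals, floors and folds cover counting error only. In normal tissue 0 counts over 2616 and 2682 spots allowed shares of up to 0.115% and 0.112% of spots with a count.

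Vgf had 0 and 1 counts in normal tissue against 889 and 960 after ischemia, or 28.6 and 37.0 CPM. The only normal count lay in the outer stripe of section 2. The ratio of ischemic to normal CPM was 2341, with a counting interval from 420 to 92520 that reflects the single normal count. Vgf was found in 22.2% and 20.6% of ischemic spots.

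1700001F09Rik had 0 counts in both normal sections against 379 and 365 in the ischemic sections (12.2 and 14.1 CPM), at least 314-fold higher. BC061237 had 0 counts against 228 and 212 (7.34 and 8.17 CPM), at least 186-fold higher. They were found in 9.83% and 9.34%, and in 6.79% and 5.70%, of the ischemic spots. Counts are summed over whole sections, so a change in the number of cells of a type and a change in RNA per cell cannot be told apart. All 4 genes were higher without overlap in the ischemic sections, as the choice required. By another measure, edgeR's quasi-likelihood test, 31% of the 15305 tested genes were called higher. The share of all genes that were higher without overlap is not given here.

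Saa1 and Grp also met the same counts but are not described further, with 0, 0, 678 and 340 counts and 1, 1, 729 and 612 counts. BC061237 was the gene nearest to the limit on the inside. Just outside lay Cxcl2, with 3, 3, 293 and 331 counts. Named after their values were seen, Fut2 (0, 0, 170 and 148), Il24 (0, 0, 172 and 132) and Gm10376 (0, 0, 138 and 156) fell short in the ischemic sections.

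The counts were unevenly spread within the ischemic sections. The 5% of spots with most counts held 62.9% and 73.6% of Crct1 counts, 46.2% and 49.2% of Vgf counts, 69.4% and 69.0% of 1700001F09Rik counts and 81.1% and 91.5% of BC061237 counts. Such a share is high for any gene found in few spots, as BC061237 was (6.79% and 5.70% of spots). It therefore does not rank the genes by how unevenly they were spread. Most spots with a Vgf count had a single one (65.5% and 60.3%). Crct1 reached 30 counts in a spot of section 1 and 72 in a spot of section 2, and the latter spot alone held 5.56% of that section's Crct1 counts.

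**Figure D1:**
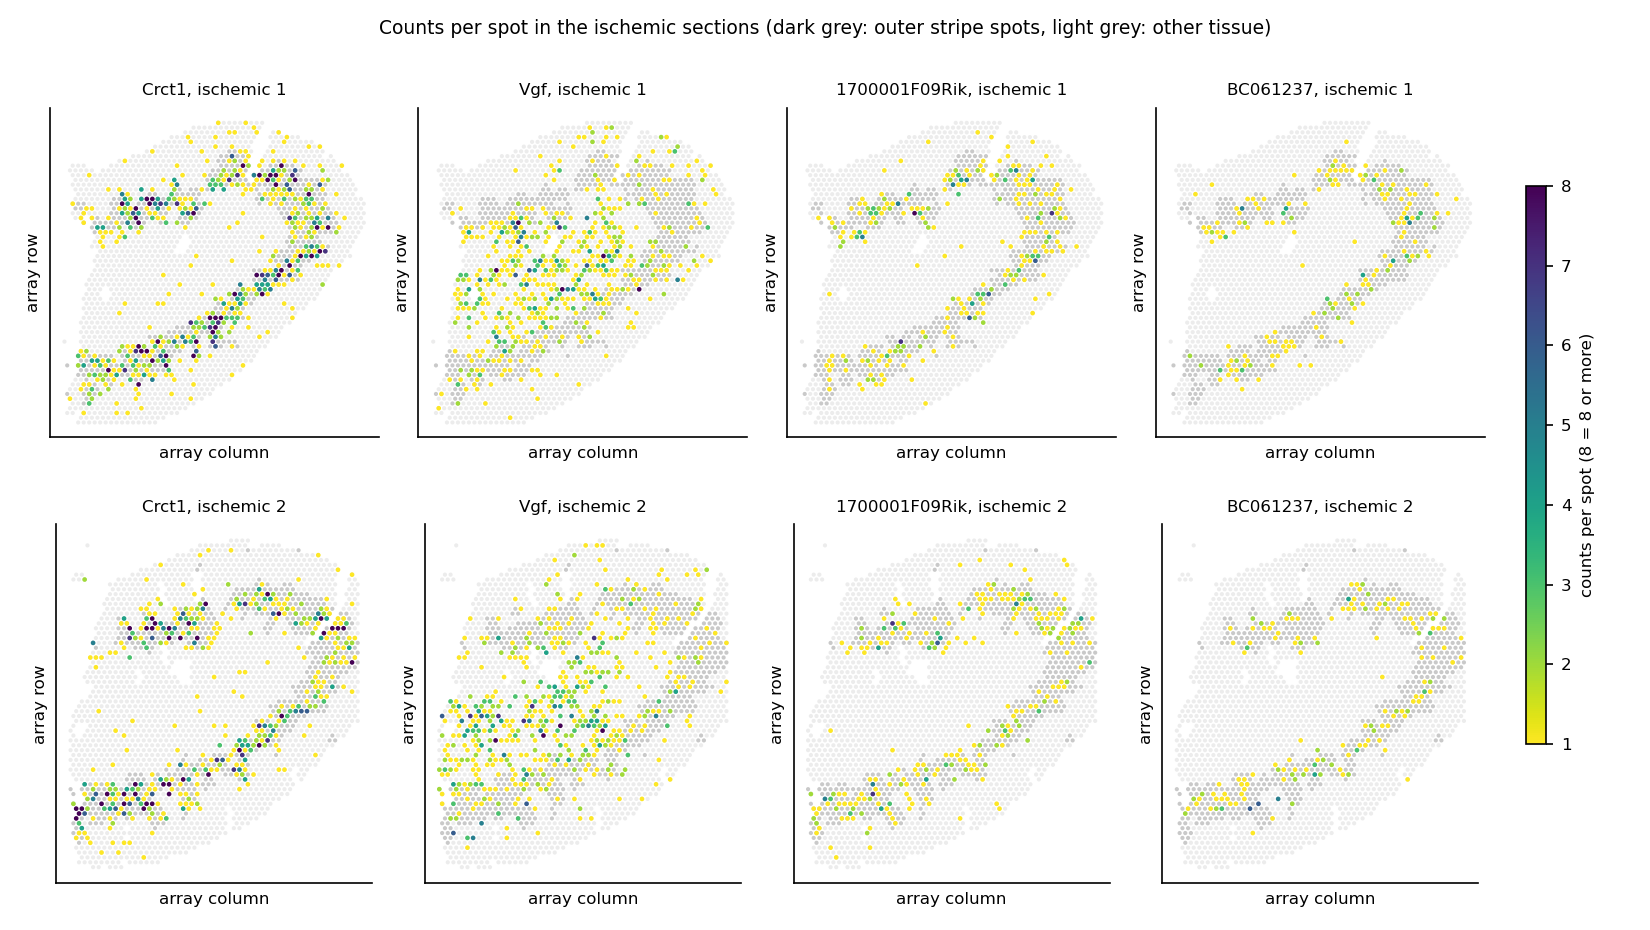
Counts per spot of each gene in ischemic section 1 (top) and 2 (bottom), drawn at the array column and row, with outer stripe spots in dark grey and other tissue in light grey. Crct1, 1700001F09Rik and BC061237 follow the outer stripe band, whereas Vgf fills the tissue inside it.

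To place the counts, every spot was given the zone of its highest standardised marker score (cortex, outer stripe, inner stripe or inner medulla). Scores were pooled over the spot with the at most 6 spots around it. Spots in the top 5% of a section's pelvis marker score, with at least 10 pooled pelvis marker counts, were labelled pelvis instead. The zones were then compared within the ischemic sections by edgeR's quasi-likelihood test with the section as a block, on counts summed per section and zone, with Benjamini-Hochberg adjustment over 13148 genes. The choice of the genes used section totals and not positions. Zones differed in many genes, so the share of all tested genes that was called stands beside each count of members. The inner stripe and inner medulla were hardly separated, with 0.92% of genes called between them.

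Crct1 was an outer stripe gene. Its level there was 121 and 128 CPM. Cortex spots had 11.8 and 7.97 CPM, inner stripe spots 18.4 and 7.97, inner medulla spots 28.9 and 24.7 and pelvis spots 17.0 and 15.1. The outer stripe held 79.2% and 85.6% of its counts in 621 of 2401 and 681 of 2613 spots. On the log2 scale the outer stripe lay above the cortex by 3.56 ± 0.12 (SE, edgeR adjusted p = 1.07e-21), the inner stripe by 3.51 ± 0.14 (8.21e-20), the inner medulla by 2.49 ± 0.14 (1.30e-15) and the pelvis by 3.22 ± 0.21 (5.30e-14). Without the 72-count spot the outer stripe level of section 2 was 120 CPM. Among the other zones, the inner medulla was called above the cortex (cortex minus inner medulla, log2 -1.07 ± 0.21, edgeR adjusted p = 7.02e-05) and above the inner stripe (inner stripe minus inner medulla, -1.02 ± 0.23, 0.0232). Inner medulla and pelvis (0.188), inner stripe and pelvis (0.680), cortex and pelvis (0.429) and cortex and inner stripe (0.879) were not called different. The inner medulla level depended on the zone border. Spots touching an outer stripe spot held 89.5% and 81.0% of its Crct1 counts. Over the alternatives the log2 difference of outer stripe over inner medulla ran from 1.77 to 4.09. Cryab, among the inner medulla markers, had a pattern across spots like that of Crct1 (given below). Without Cryab 90.1% and 91.0% of inner medulla spots kept their zone. The inner medulla was not compared again with the cortex or inner stripe without it, so the part of Cryab in these 2 calls was not tested.

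1700001F09Rik and BC061237 had the same place of highest level. 1700001F09Rik stood at 27.9 and 33.9 CPM in the outer stripe against 2.63 and 3.55 in the cortex, a log2 difference of 3.26 ± 0.18 (edgeR adjusted p = 1.77e-16). BC061237 stood at 17.4 and 20.1 CPM against 1.35 and 1.08, a log2 difference of 3.82 ± 0.22 (1.11e-15). Against the inner stripe the log2 differences were 3.30 ± 0.22 (2.70e-14) and 2.87 ± 0.24 (5.08e-12), and against the inner medulla 2.94 ± 0.25 (2.19e-11) and 2.64 ± 0.28 (1.95e-09).

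The pelvis ranked second for both, and there the sections disagreed in size. 1700001F09Rik had 22.6 and 11.1 CPM in the pelvis and BC061237 8.89 and 3.96, from 28 and 14 and from 11 and 5 counts. The outer stripe was higher by 1.14 ± 0.24 (edgeR adjusted p = 0.000268) and 1.81 ± 0.32 (2.58e-05). Neither call was kept without ischemic section 1 (0.102 and 0.101) or section 2 (0.592 and 0.405), and the BC061237 call against the inner medulla was lost too (0.0503 and 0.0836). Only 28.3% and 28.5% of pelvis spots kept their zone when scored without their neighbours. For 1700001F09Rik the pelvis exceeded the cortex (cortex minus pelvis, log2 -2.12 ± 0.35, 6.69e-06), and cortex and inner stripe were not called different (0.924).

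Vgf was highest in the inner medulla and inner stripe, with the outer stripe below both. Inner medulla spots had 96.4 and 99.8 CPM and inner stripe spots 70.1 and 87.7. Pelvis spots had 33.1 and 31.7 CPM, outer stripe spots 19.3 and 25.5, and cortex spots 7.08 and 8.62. The zone levels of the 2 sections did not overlap between neighbours in this order. By edgeR's quasi-likelihood test the outer stripe was above the cortex by 1.43 ± 0.13 on the log2 scale (adjusted p = 7.44e-11), and its difference to the inner stripe was -1.55 ± 0.10 (1.06e-14) and to the inner medulla -1.86 ± 0.11 (1.25e-15). Inner stripe and inner medulla (-0.32 ± 0.10, 0.147) and outer stripe and pelvis (-0.27 ± 0.18, 0.267) were not called different.

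So 4 of 4 genes were higher in the outer stripe than in the cortex, beside 20.8% of all tested genes, and 3 of 4 were higher than in the inner stripe, inner medulla and pelvis, beside 27%, 24% and 19.2%. Vgf was lower in the outer stripe than in the inner stripe and inner medulla, beside 28.6% and 23.1%. Of 13148 genes, Crct1, 1700001F09Rik and BC061237 ranked 31, 43 and 22 by log2 difference of outer stripe over cortex, and Vgf ranked 383. Over the other 6 zone pairs, 13 of 24 tests of the 4 genes passed. The shares of all genes called were 59.4% for cortex against inner stripe, 54% against inner medulla and 43.5% against pelvis, 11.8% for inner stripe against pelvis and 7.58% for inner medulla against pelvis. The differences to the cortex shrank to 1.13, 0.94, 1.20 and 0.76 for Crct1, 1700001F09Rik, BC061237 and Vgf when zones were set by distance from the tissue edge instead of markers, and all 4 stayed called. That rule took relative depths under 0.4 as cortex and from 0.4 to 0.7 as outer stripe. The median outer stripe spot by markers lay at 0.533 and 0.378, so many outer stripe spots of section 2 counted as cortex under it.

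**Figure D2:**
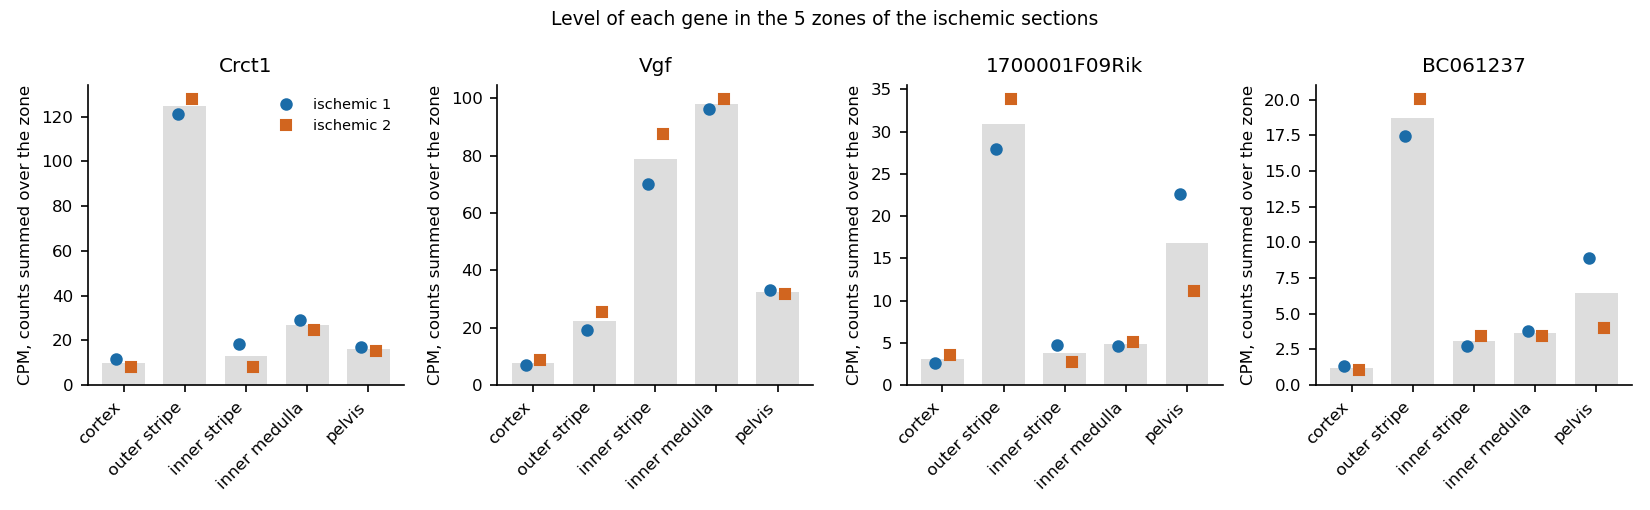
CPM of each gene in the 5 zones (bars, mean of both ischemic sections; circles, section 1; squares, section 2; each panel has its own linear axis from 0). Crct1 stands at 121 and 128 CPM in the outer stripe and at most 28.9 elsewhere, and Vgf is highest in the inner medulla and inner stripe.

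Spots of the outer stripe were also deeper (median 15657 and 11912 UMIs, against 12316 and 8441 in the cortex and 9691 and 7754 in the inner stripe). Each spot was therefore thinned to 2000 UMIs, which left out between 2 and 86 shallower spots per zone and section. Unthinned, Crct1 was found in 52.8% and 43.0% of outer stripe spots against 10.9% and 5.76% of cortex spots, and after thinning in 16.3% and 14.6% against 2.16% and 1.38%. Vgf was found in 40.3% and 35.5% of inner stripe spots before and 12.8% and 13.6% after thinning, against 21.6% and 21.1% before and 4.90% and 5.06% after in the outer stripe. For 1700001F09Rik the thinned outer stripe shares were 5.07% and 6.99% against 0.866% and 0.806% in the cortex, and for BC061237 3.59% and 4.32% against 0.216% and 0.115%. The order of the zones named here was the same before and after thinning, but that of the pelvis was not always. For 1700001F09Rik in section 1 the pelvis had 14.2% against 27.1% in the outer stripe before thinning and 5.94% against 5.07% after. In section 2 it had 2.36% against 6.99% after. For Vgf in section 2 the pelvis had 18.5% against 21.1% in the outer stripe before and 7.09% against 5.06% after.

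The borders of the outer stripe were examined next, since a spot can straddle 2 zones (a split chosen after seeing the data, given as values with no test). Inner medulla spots that touched an outer stripe spot had 95.4 and 91.2 CPM of Crct1, and those that did not had 4.18 and 6.02. Touching spots made up 21.6% and 18.3% of the inner medulla and held 89.5% and 81.0% of its Crct1 counts. In the inner stripe the levels were 82.2 and 15.9 CPM touching and 3.09 and 6.49 not touching. Away from the outer stripe, Crct1 was therefore at 3.09 to 7.03 CPM in cortex, inner stripe and inner medulla.

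BC061237 and 1700001F09Rik behaved alike at these borders. BC061237 had 12.6 and 15.5 CPM in touching inner medulla spots against 0.52 and 0 elsewhere in that zone, where it had 1 and 0 counts. 1700001F09Rik had 14.0 and 19.4 against 1.05 and 1.09. Vgf went the other way. Inner stripe spots had 21.1 and 60.8 CPM when touching and 81.8 and 92.7 when not, and inner medulla spots 87.0 and 52.4 against 99.8 and 113 CPM. In the pelvis the sections differed for 1700001F09Rik, with 20.6 and 31.6 CPM in touching spots and 23.2 and 5.12 in the others.

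**Figure D3:**
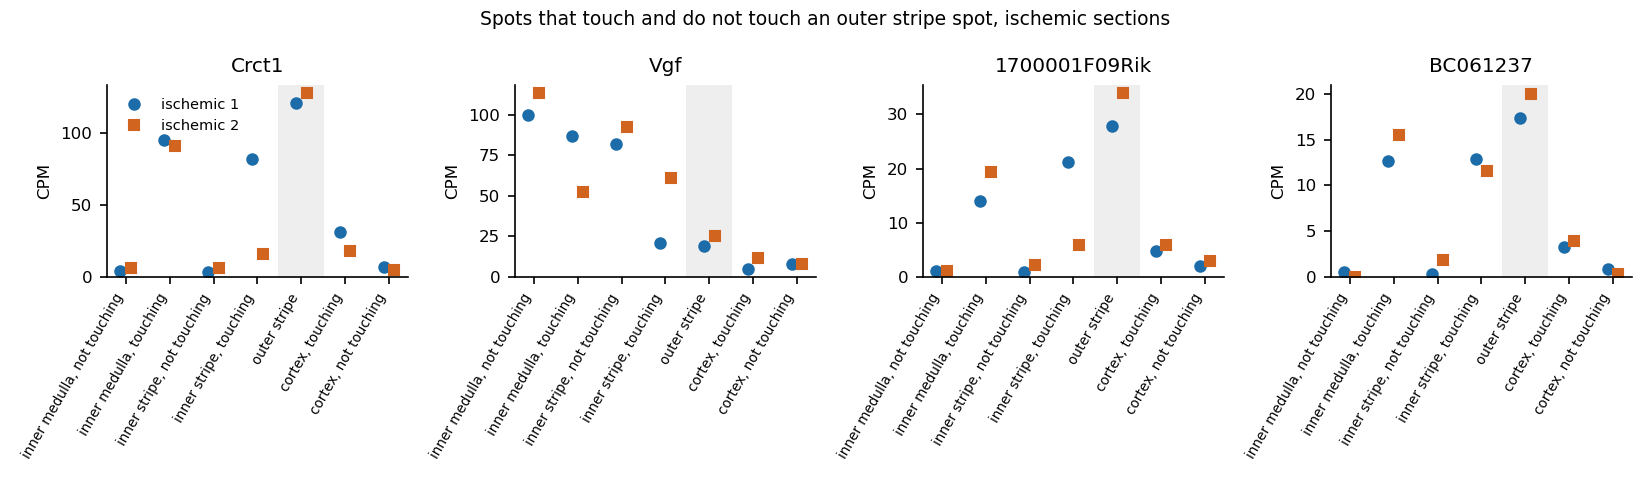
CPM of each gene in spots of the inner medulla, inner stripe and cortex that touch or do not touch an outer stripe spot, with the outer stripe itself shaded (circles, ischemic section 1; squares, section 2; pelvis not drawn). In the zones drawn, Crct1, 1700001F09Rik and BC061237 are far lower away from the outer stripe than in it, with Crct1 at 3.09 to 7.03 CPM. Vgf is highest away from the outer stripe on the medullary side.

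The likeness of expression was measured as Pearson's r across spots of each ischemic section (2399 and 2593 spots), on log2(CPM + 100) of counts pooled over a spot and its neighbours, for 9425 genes with at least 200 counts in both sections. Neighbouring points share counts, zone and depth, so r is a description with no p. Crct1 was most like Krt20 (mean r = 0.76), a keratin of urothelium and injured tubules, then Flnc (0.75), an actin crosslinker, the small heat shock protein Cryab (0.71), the phospholipid-binding Anxa3 (0.71) and the keratin Krt8 (0.67). The median r of Crct1 with the other genes was -0.04 and the 95th percentile 0.26. Krt20 ranked first in both sections (r = 0.79 and 0.73).

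1700001F09Rik shared 4 of its 5 most similar genes with Crct1, namely Krt20 (0.68), Flnc (0.64), Anxa3 (0.63) and Cryab (0.63), and the fifth was Slpi (0.65), a secreted protease inhibitor. BC061237 had the same 5 in another order, Krt20 (0.64), Flnc (0.63), Cryab (0.61), Slpi (0.61) and Anxa3 (0.60). The levels of the first of these were like those of Crct1 in place: Krt20 stood at 514 and 564 CPM in the outer stripe against 73.2 and 75.8 in the cortex. Cryab is also one of the inner medulla markers, and its level was 5847 and 5862 CPM in the outer stripe against 2261 and 1704 in the inner medulla.

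Vgf had other neighbours. It was most like the metal-binding metallothioneins Mt1 (0.69) and Mt2 (0.66), Lcn2 (0.68), the autophagy gene Vmp1 (0.65) and the myo-inositol transporter Slc5a3 (0.64). Lcn2 reached 9833 and 10901 CPM in inner medulla spots and 7597 and 8645 in inner stripe spots, against 738 and 622 in cortex spots, so it was high at the same end of the kidney as Vgf. The median r of Vgf with the other genes was 0.09.

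Among the 4 genes, Crct1 with 1700001F09Rik (mean r = 0.58), Crct1 with BC061237 (0.55) and 1700001F09Rik with BC061237 (0.59) were alike, whereas Vgf had r of -0.07, -0.08 and -0.07 with them. Of the 505 spots of section 1 with a Crct1 count, 27.1% also had 1700001F09Rik against 5.22% of the other spots, and 22.2% had Vgf against 22.3%. In section 2 the shares were 30.7% against 5.36% and 24.8% against 19.8%. Spots with Crct1 were deeper (median 15934 against 10840 UMIs in section 1 and 13362 against 8103 in section 2), and the part of depth in these shares was not tested. Within the outer stripe alone the mean r were 0.31, 0.29 and 0.41 for the 3 alike pairs, and 0.16, 0.04 and 0.06 for Vgf.

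**Figure D4:**
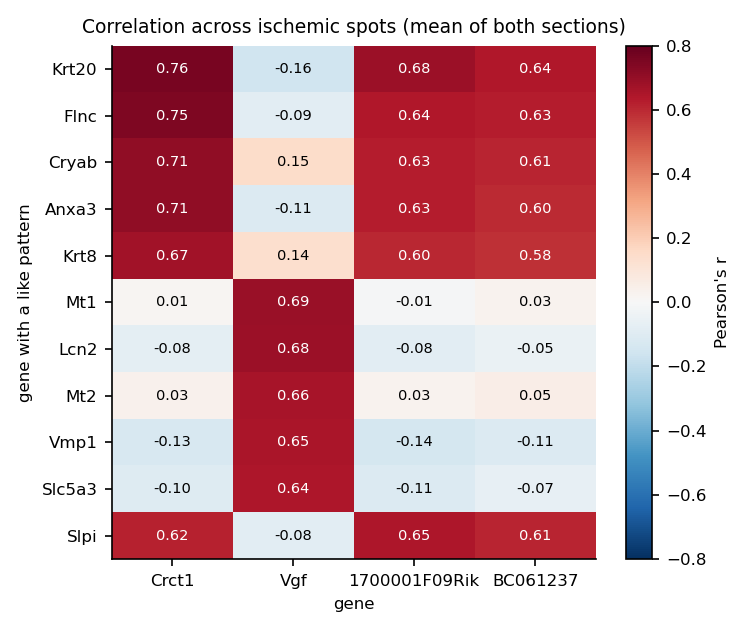
Pearson's r across ischemic spots (mean of both sections) of the 4 genes (columns) with the 11 genes named as most like any of them (rows); red is positive and blue negative. Krt20, Flnc, Cryab, Anxa3, Krt8 and Slpi go with Crct1, 1700001F09Rik and BC061237, and Mt1, Lcn2, Mt2, Vmp1 and Slc5a3 with Vgf.

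Whether the genes lay with tubular injury inside 1 zone was then tested. Outer stripe and cortex spots of each ischemic section were split at the median of the summed CPM of 9 injury genes (Havcr1, Lcn2, Krt20, Clu, Spp1, Vcam1, Cdkn1a, Sox9 and Krt18). Spp1, which encodes osteopontin, made up 79.7% and 78.9% of that sum, so the split was mainly one by Spp1. The sum was pooled over a spot and the spots around it, of any zone. It also differed by zone, with 85937 and 91371 CPM in the inner stripe and 75739 and 82795 in the inner medulla. The outer stripe had 33864 and 33137 CPM. Outer stripe spots next to the medulla can thus score as injury-high, and the part of this in the split was not tested. In the outer stripe, Vgf had 8.52 and 13.6 CPM in injury-low spots and 32.6 and 39.9 in injury-high spots, a log2 difference of 1.56 ± 0.16 (edgeR quasi-likelihood test, adjusted p = 3.74e-11 over 12382 genes). It ranked 52 from the top. The difference was larger than that in the cortex, by 1.40 ± 0.29 (adjusted p = 0.000732), a contrast in which 6.01% of genes were called.

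Crct1 had 117 and 114 CPM in injury-low and 127 and 145 in injury-high outer stripe spots, which was not called (log2 0.06 ± 0.07, edgeR adjusted p = 0.584). 1700001F09Rik was lower in injury-high spots, at 25.6 and 28.4 against 29.8 and 38.4 CPM (log2 -0.50 ± 0.13, 0.00219), but DESeq2 gave an adjusted p of 0.238. BC061237 had a log2 difference of -0.40 ± 0.16 (0.0626). So 1 of 4 genes was called higher and 1 lower, beside 8.28% and 16.6% of all tested genes. In the cortex 0 of 4 were called by edgeR (0 also at an unadjusted p under 0.05), beside 11.2% of genes, and DESeq2 called 0 of the 3 to which it gave an adjusted p. Over the other ways to split or fit, the Vgf difference in the cortex ran from 0.12 to 1.61 on the log2 scale.

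The result depended on which injury genes made the split. With Havcr1 and Krt20 alone, the outer stripe directions turned for 3 of the 4 genes. Vgf was then lower in injury-high spots (log2 -1.02, edgeR adjusted p = 5.11e-06), and 1700001F09Rik (1.05, 1.29e-07) and BC061237 (1.08, 7.20e-06) were higher. Crct1, which was not called with the 9 genes, was called higher (0.46, 2.10e-05). In the cortex all 4 were then called higher, with Crct1 at 1.48 (6.91e-06), Vgf at 1.06 (0.00127), 1700001F09Rik at 1.11 (0.0279) and BC061237 at 1.90 (0.0246). Neither split was independent of likeness. Krt20 was itself the gene most like 3 of the 4. Of the 9 genes, Lcn2 was the second most like Vgf (mean r = 0.68), and Spp1, which made up most of the sum, had r of 0.63 with Vgf in both sections and ranked 9 by mean r.

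**Figure D5:**
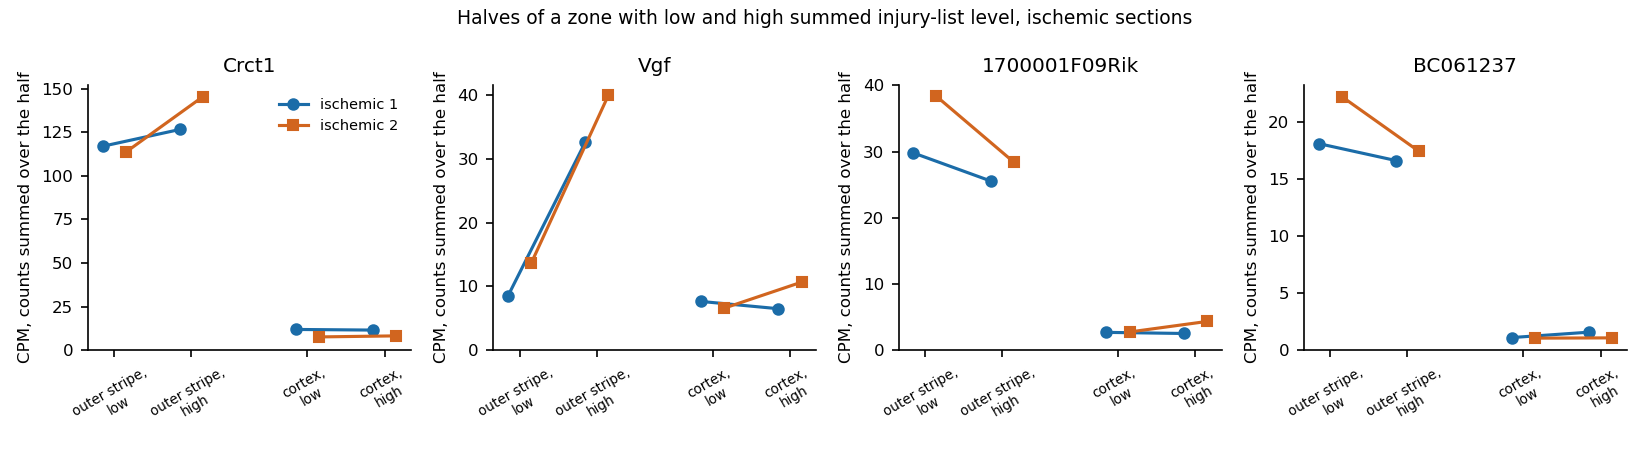
CPM of each gene in injury-low and injury-high spots of the outer stripe and the cortex, split at the median of the 9-gene injury sum (lines join the 2 values of a section; circles, ischemic section 1; squares, section 2). Vgf rises from 8.52 to 32.6 and from 13.6 to 39.9 CPM in the outer stripe, and in the cortex no gene was called. With Havcr1 and Krt20 as the only injury genes the Vgf difference in the outer stripe had the other sign (log2 -1.02).

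Markers of some other cells moved with the ischemic state and the zones. The 6 neutrophil markers, all above 0 in every section, summed to 1.91 and 2.93 CPM in normal and 181 and 181 CPM in ischemic tissue. By zone they summed to 322 and 328 CPM for outer stripe, 69.8 and 80.9 CPM for cortex and 357 and 139 CPM for pelvis spots. Their r with Crct1, 1700001F09Rik and BC061237 lay between 0.37 and 0.49 over all ischemic spots, and with Vgf at 0.08 and 0.04. Within the outer stripe the order was the other way round. There Vgf had r of 0.43 and 0.45 with the neutrophil markers, and the other members had r between 0.16 and 0.32. Vgf had r of 0.49 and 0.43 with 6 macrophage markers and of 0.57 and 0.44 with 4 endothelial markers. The macrophage markers were not raised in the ischemic sections, at 130 and 132 CPM against 130 and 177 in normal tissue. The part of these cells in the results was not tested.

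Of 7 nerve and neuroendocrine markers, Th was at 0 in all 4 sections and Dbh in both ischemic sections and normal section 2. The list summed to 26.2 and 24.1 CPM in ischemic against 16.8 and 29.1 in normal tissue. Across ischemic spots Vgf had r of 0.39 and 0.26 with this list, 0.35 and 0.16 within the inner stripe and 0.07 and 0.05 within the outer stripe, and the part of these cells was not tested. Of 6 keratinocyte markers, Krt6a and Dsg3 were at 0 in all sections, and the sum was 1.67 and 2.54 CPM in the outer stripe, where Crct1 was highest, against 155 and 235 in the pelvis. Krt5 is in this list and also among the pelvis zone markers, so the high pelvis sum was partly set by the zone labels. The 6 testis germ cell markers had 0 counts in both ischemic sections.

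The chromosome 14 cluster was read as a group because its members share sequence. In the count tables, 10 genes were near-identical to 1700001F09Rik (96.1% to 99.4% identity over at least 90% of the transcript), BC061237 among them. All 10 had 0 counts in both normal sections, and 2 had 0 counts in every section. Gm3573 had 132 and 94, Gm3486 112 and 97 and Gm10376 138 and 156 counts in the ischemic sections. The exon 4 of Gm10376 is the same as the 1700001F09Rik sequence printed above.

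Of the 451 windows of 50 bases in the last 500 bases of the transcript, near the captured end, 18.6% were unique to 1700001F09Rik and 64.1% to BC061237, against 100% for Crct1 and Vgf. The sources used here do not say how reads matching several genes were counted, so the split of counts among the copies is uncertain. Summed over the 11 genes, counts were 0 and 0 in normal against 1012 and 948 in ischemic tissue. The summed level was 78.1 and 86.2 CPM for outer stripe spots and 6.76 and 8.40 CPM for cortex spots.

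The genomic neighbours of the 4 genes, 3 on each side, differed in how they moved. The 6 around Crct1 (Lce3d, Lce3e, Lce3f, Lce1m, Gm4858 and Crnn) had at most 1 count in any section, too few to test. Around Vgf, Plod3 (log2 1.32), Cldn15 (1.01), Ap1s1 (0.61) and Trim56 (0.31) were called higher by edgeR, Trim56 neither by DESeq2 (0.190) nor without ischemic section 1 (0.143) or 2 (0.154), and Znhit1 was not called (log2 -0.01, adjusted p = 0.966). The share of all tested genes called higher was 31%.

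Around 1700001F09Rik, 4 of the 4 tested neighbours were higher, beside 31% of all tested genes, and 2 had at most 1 count. They were Gm8126 (71 and 39 to 864 and 595 counts, log2 3.77), Gm9732 (3.08), Gm8138 (2.75) and Gm5799 (4.48). Gm8138 and Gm5799 passed the low-count filter through the ischemic sections alone, so these 2 of the 4 carry no weight in the count. Gm8138 is itself a more distant relative of the cluster (88.9% identity over 54.3% of the transcript). Around BC061237 only AC160336.1 could be tested, and it was not called (0.88 ± 0.57, edgeR adjusted p = 0.209).

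Genes that act with Vgf were compared between ischemic and normal sections by the same edgeR test over 15305 genes, whose median log2 fold change was 0.04. Of 15 granins and prohormone-processing genes, 8 were tested, 5 rose and 1 fell, beside 31% of all tested genes called higher and 29.7% lower. Of the 8, Pcsk2 and Pcsk1n passed the low-count filter through the ischemic sections alone, so these 2 of the 5 carry no weight in the count. The prohormone convertase gene Pcsk2 had 0, 0, 50 and 55 counts and Pcsk1n, which encodes the convertase inhibitor proSAAS, had 5, 8, 36 and 29. Cpe, which encodes the carboxypeptidase that trims prohormones, went from 2345 and 1780 to 8792 and 7299 counts (log2 2.00 ± 0.11, edgeR adjusted p = 1.18e-06), Npy rose by 1.54, and Pomc fell by 1.01. The granins Chga, Chgb, Scg2 and Scg3 had at most 1 count in any section.

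Of 12 genes of the VGF peptide receptors and the neurotrophin pathway, all tested, 2 rose and 3 fell, beside the same 31% and 29.7%. On the log2 scale Ntrk2 fell by 1.75 and Ntf3 by 1.17. Ntrk2 passed the filter through the normal sections alone, so its call carries no weight in the count. The candidate VGF peptide receptors C3ar1 (log2 0.54, edgeR adjusted p = 0.113) and C1qbp (0.25, 0.106) were not called.

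Of 52 genes of the epidermal differentiation complex and cornified envelope other than Crct1, 25 had 0 counts in all sections and 11 were tested, of which 4 rose and 4 fell, beside 31% and 29.7% of all tested genes. Sprr2f and Sprr2h among those that rose passed the filter through the ischemic sections alone, and Smcp among those that fell through the normal sections alone, so their calls carry no weight in the count. Sprr2f, a small proline-rich envelope protein, had 2, 5, 2396 and 1951 counts (log2 9.27), and Sprr2h had 0, 0, 17 and 17. Tgm1, the envelope crosslinking enzyme, rose by 1.18, and Sprr1a was called by edgeR (1.11, 0.0134) but not by DESeq2 (0.0993). Smcp fell from 309 and 156 counts to 1 and 2, and Sprr2a3 fell by 1.87.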

How the data were processed

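The deposited files hold whole-number UMI counts per gene and spot, which the authors made with Space Ranger 1.3.0 (per the file headers) on mm10 (per the submitters' processing notes). The counts of tissue spots were used as deposited, and CPM was computed from them. The sections held 44528078, 27657481, 31053530 and 25957128 UMIs (median per spot 16162.5, 8656, 11851 and 8883, normal 1 and 2 and ischemic 1 and 2), so precision is limited by depth for genes of few counts.

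Groups came from the sample labels. Spots have fixed array barcodes, so sections share them by design. Zones were set from fixed marker lists by the highest standardised score of pooled neighbours, except the pelvis, which was set by a cutoff on its own score. Counts were summed per section, zone or injury class and tested with edgeR 4.0.16 in R 4.3.3 (TMM, low-count filter, quasi-likelihood test, Benjamini-Hochberg, threshold 0.05). DESeq2 1.42.0, size-factor scaling, no filter, other zone rules, left-out sections and block changes were alternatives. Scripts were tested on simulated data.

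Named genes were the 4 chosen genes, the 5 most alike to each, genes narrowly outside the rule, Havcr1 and Lcn2, and up to 4 of each list, with any other named as such. The genes and lists were chosen with earlier results of these data known. Transcript identity came from GENCODE M21 on GRCm38, which held 32158 of 32285 identifiers (99.6%). Other sections of the study were not analysed here. Values of some genes of the lists and neighbourhoods are not reported here. Python 3.11.15 was used for summaries.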

Additional observations from a re-analysis of the deposited data

Results flagged for a closer look

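The injury-high minus injury-low difference of Vgf was larger in the outer stripe than in the cortex of the ischemic sections, by 1.40 ± 0.29 on the log2 scale (edgeR quasi-likelihood interaction test, adjusted p = 0.000732, 12382 genes). The log2 difference was 1.56 in the outer stripe and 0.15 in the cortex, and with the main split by the 9 injury genes it was called in the outer stripe only. Both depended on the list: with Havcr1 and Krt20 alone the Vgf difference was -1.02 in the outer stripe (edgeR adjusted p = 5.11e-06) and 1.06 in the cortex (0.00127), so its direction turned in the outer stripe and it was called in both zones. This contrast was added after the data were seen, and 6.01% of genes were called in it. With the 9 genes both sections of the outer stripe were higher in injury-high spots. The 9-gene sum was itself higher in the inner stripe and inner medulla than in the outer stripe, and the part of nearness to the medulla was not tested. In the cortex Vgf had 41 and 49 counts in injury-high and 48 and 31 in injury-low spots. Over the alternatives the Vgf difference in the cortex ran from 0.12 to 1.61. The highest came from an alternative that kept the 9 genes, and Vgf was called in the cortex there too (lowest edgeR adjusted p = 4.58e-08).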

How the results depend on the processing

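Across zones, 156 results of the 4 genes under the alternatives kept direction and call, 6 lost the call and 2 reversed. The 6 lost calls are those of BC061237 and 1700001F09Rik against the inner medulla and pelvis given in the report. Vgf in the outer stripe against the pelvis ran from -0.47 to 0.043 with an ischemic section left out (positive without replicate 1) and turned to 0.84 with zones from the spot alone, and it was not called in any. The cause of the changes below was not tested.

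Counts of called genes moved most when a section was left out, where the remaining one is assumed to vary like the other groups. The counts then ran from 589 to 676 for outer stripe against cortex (6390 with both), 789 to 841 against inner stripe (7307), 258 to 640 against inner medulla (6183) and 147 to 413 against pelvis (4616). Outer stripe against cortex gave 3724 with DESeq2, 3758 with 1 model over all 4 sections and no replicate block (both changed together) and 1324 with zones by distance, and against pelvis 3058 with that 4-section model. The injury split in the outer stripe (3077) gave 1392 with DESeq2 and 1768 with Havcr1 and Krt20 only. In the cortex (1392) it gave 484 with DESeq2, 875 with no replicate block and 3439 with the score of the spot alone.

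Splitting by the score of the spot alone reversed Crct1 in the outer stripe (-0.28) and Crct1 (0.28), 1700001F09Rik (-0.026) and BC061237 (-1.25) in the cortex. With Havcr1 and Krt20 only, Vgf (-1.02), 1700001F09Rik (1.05) and BC061237 (1.08) reversed in the outer stripe and Crct1 (1.48) in the cortex. The mean likeness of the 20 named pairs (0.66) was 0.37 with the spot alone, 0.64 by Spearman, 0.47 in outer stripe spots and 0.44 in inner stripe spots, the last chosen after seeing the data.

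Ischemic against normal gave 9279 genes and 10089 with a replicate block, but same-numbered sections share only a number (r = 0.16 of their differences over 15305 genes, 2 pairs). Without 1 section it gave 6493 to 10877. Calls were lost without ischemic section 1 for Creb1 (adjusted p = 0.0632), Lor (0.117), Tchh (0.0744) and Trim56, without ischemic section 2 for Creb1 (0.288), Tchh (0.152) and Trim56, and without normal section 1 for Tchh (0.0836).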
